A study of Mus musculus with 14 samples.

Results

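Mef2a, Mef2c and Mef2d are 3 of the 24444 genes measured in mouse cortex here, and they were chosen by their symbols with their values in both mouse models already known. Their differences between mutant and wild-type mice are therefore given as descriptions, with no test. All 3 lay above the filter on low values in both tables. The fourth gene of the family, Mef2b, was not among the chosen genes and lay below that filter.

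Polyadenylated RNA from cortex was sequenced in 14 mice of 2 models. The miR29Nestin mice (n = 3, postnatal day 40) carried floxed alleles of both clusters of miR-29 genes, miR-29ab1 and miR-29b2c, deleted with Nestin-Cre, and were compared with miR29WT mice of the same age (n = 3). Nestin-Cre acts in neural progenitors and so in the neurons, astrocytes and oligodendrocytes that descend from them, while microglia and vessels arise elsewhere. The Dnmt3a-mi5 mice (n = 4, 4.5 months) kept miR-29 and carried a CRISPR/Cas9 knock-in in which 5 sites for miR-29 within the Dnmt3a 3′ UTR read CACGGCT instead of TGGTGCT. They were compared with Dnmt3a-WT mice of the same age (n = 4). Whether the wild-type mice carried floxed alleles or Cre, and whether the knock-in was homozygous, is not given in the sources used here.

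MEF2 proteins are transcription factors of the MADS-box family that bind an A/T-rich DNA element and regulate genes of muscle, vessels, blood cells and neurons. In neurons, calcium entry switches them from repression to activation: the phosphatase calcineurin dephosphorylates them, and calcium-dependent kinases drive class IIa histone deacetylases, which repress MEF2, out of the nucleus. MEF2 factors limit the number of excitatory synapses in response to activity, and Mef2c is needed for the development of cortical excitatory neurons. Bulk cortex also holds microglia and endothelium, which use Mef2a and Mef2c, and in such tissue fewer cells of a type and less RNA per cell cannot be told apart.

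The microRNAs deleted in the miR29Nestin mice are printed here because the first question about each Mef2 transcript is whether it carries their site. They share 1 seed, bases 2 to 8, in capitals (RefSeq, GRCm38.p6, 5′ to 3′).
mmu-miR-29a-3p: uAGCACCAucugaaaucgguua
mmu-miR-29b-3p: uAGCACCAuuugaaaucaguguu
mmu-miR-29c-3p: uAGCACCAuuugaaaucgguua
The seed pairs with TGGTGCT. Only the longest annotated 3′ UTR of each gene in GENCODE M21 was searched. The site occurred 0 times in that of Mef2a (3705 nt), Mef2c (4449 nt) and Mef2d (3443 nt). It occurred in 16.65% of the 3′ UTRs of tested genes, and in 34.7% of the 1497 such UTRs that were 3000 to 5000 nt long.

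Other matches to the seed, of 6 letters, were found in Mef2c and Mef2d. They are shown with their flanks, the 6 letters GGTGCT and a following A in capitals (5′ to 3′ of the transcript, from GENCODE M21).
Mef2c, chr13:83664245-83664250, plus strand: caaggtgaaagcctgGGTGCTgga
Mef2d, chr3:88170524-88170529, plus strand: aagtcatgggggacgGGTGCTAgt
Mef2d, chr3:88170755-88170760, plus strand: gctgaccaagcatggGGTGCTAcc
Mef2d, chr3:88170920-88170925, plus strand: aatgggtggatgacaGGTGCTcaa
Coordinates are those of GRCm38. The 6-letter match lay 1 time in the Mef2c UTR, 3 times in that of Mef2d and 0 times in that of Mef2a. It is a common string, present in 35.9% of tested 3′ UTRs and in 64.5% of those of 3000 to 5000 nt. The form followed by A, GGTGCTA, is as long as TGGTGCT and lay in Mef2d 2 times. It was present in 8.39% of all tested 3′ UTRs and in 16.6% of those of 3000 to 5000 nt. A match is a description of letters, not evidence of a working site.

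Dnmt3a, the enzyme that methylates neuronal DNA outside CG dinucleotides and the gene altered in the second model, followed the labels. Its normalised count was 5529 ± 299.6 in the miR29Nestin libraries and 1662 ± 59.25 in their controls (SD, n = 3 per group). In the Dnmt3a-mi5 libraries it was 2080 ± 150.5, with 1145 ± 84.64 in their controls (SD, n = 4 per group). A normalised count is a read count divided by the size factor of its library, recovered here from the deposited log2 values. Recovered depth was 9.18 to 14.4 M reads in genes per library of the miR29 table. The read depth of the Dnmt3a table is unknown. Its libraries are numbered by column order only, because the table repeats its replicate names, and an effect separating libraries 1 and 2 of each group from libraries 3 and 4 had been removed from its values before deposit. In the miR29 table the sexes were not balanced: Y-linked genes were expressed in 1 of 3 miR29Nestin and 2 of 3 miR29WT libraries.

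Mef2c, which has the highest level of the family in cortex, was lower in every mutant library of both models. At day 40 the 3 miR29Nestin libraries held 5603, 5519 and 5240 normalised counts of Mef2c, and the 3 miR29WT libraries 9334, 9000 and 8913. The groups did not overlap, and the gap between them was far wider than either group. The group means were 5454 ± 190 and 9082 ± 222 (SD, n = 3 each), so that Mef2c stood at 60.05% of its wild-type level. On the deposited log2 scale, which the variance stabilisation compresses for low counts, the difference was −0.72 (SE 0.03). Among the 12014 genes tested, a more negative difference was seen for 23.

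In the older Dnmt3a mice Mef2c was also lower in all 4 mutant libraries, with a wider spread. Counts of 5537, 6837, 6596 and 5978 were measured in Dnmt3a-mi5 libraries 1 to 4, and of 9360, 7576, 8039 and 8482 in Dnmt3a-WT libraries 1 to 4. The highest mutant library, Dnmt3a-mi5 library 2, lay below the lowest wild-type library, Dnmt3a-WT library 2, so that the groups approached each other without overlap. The means were 6237 ± 590.5 and 8364 ± 760 (SD, n = 4 each), or 74.6% of wild type, and the log2 difference was −0.40 (SE 0.09). It was −0.43 between libraries 1 and 2 of each group and −0.38 between libraries 3 and 4. Of the 10670 genes tested in these mice, 4 had a more negative difference.

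Mef2a, which shares the DNA-binding domain of Mef2c and is found in most tissues, was lower as well, at a lower level of expression. The miR29Nestin libraries held 958, 1197 and 1252 normalised counts and the miR29WT libraries 1523, 1727 and 1708. Library 1 was the lowest of its group on each side, and the groups did not overlap. The means were 1136 ± 156 and 1653 ± 113 (SD, n = 3 each), which is 68.7% of wild type, with a log2 difference of −0.48 (SE 0.115). The lowest miR29Nestin library for Mef2a was the highest of its group for Mef2c, so the order of the libraries was not shared by the 2 genes.

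For Mef2a the older mutants gave 1720, 1664, 1715 and 1630 counts, and their controls 1954, 1908, 1992 and 1915. All 4 mutant libraries lay below all 4 wild-type libraries. The groups were narrow in values from which an effect had been removed, which can make their spread too small. The means were 1682 ± 43.2 and 1942 ± 38.6 (SD, n = 4 each), or 86.6% of wild type, and the log2 difference was −0.17 (SE 0.02). In libraries 1 and 2 it was −0.16, and in libraries 3 and 4 it was −0.19. A more negative difference was seen for 180 of the tested genes, and for 126 in the miR29 table.

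Mef2d, the family member that carries 3 of the short seed matches, had overlapping groups in both models. The miR29Nestin libraries held 3826, 3844 and 3841 normalised counts, closer together than the miR29WT libraries with 3497, 4114 and 4056. The means were 3837 ± 9.74 and 3889 ± 341 (SD, n = 3 each), a log2 difference of −0.02 (SE 0.07), and miR29WT library 1 lay below all mutant libraries while the other 2 lay above them. For Mef2d the older mutants gave 3163, 3018, 3091 and 2927 counts, and their controls 2891, 2963, 2960 and 3054. Their means were 3050 ± 101 and 2967 ± 66.8 (SD, n = 4 each), with a log2 difference of 0.035 (SE 0.03). The ranges of mutant and wild-type libraries overlapped in both models.

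**Figure D1:**
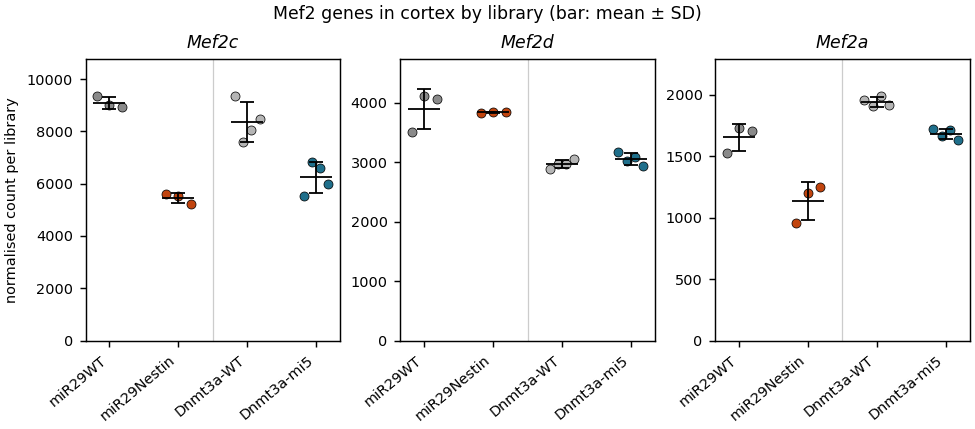
Normalised counts (vertical axes, from 0) of Mef2c, Mef2d and Mef2a in each library of the 4 groups, with the group mean and SD as bars. For Mef2c and Mef2a every mutant point lies below every wild-type point of the same model, while the points of Mef2d overlap.

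For comparison with these genes, the mutant libraries all lay lower than the wild-type libraries for 18.7% of tested genes in the miR29 table (all higher for 18.6%) and for 6.67% in the Dnmt3a table (all higher for 5.33%). Mef2a and Mef2c were chosen with this known, so nothing is read from their being 2 of 3. In the miR29 table the log2 difference among libraries without Y-linked expression (2 mutant and 1 wild-type) was −0.72 for Mef2c, −0.44 for Mef2a and −0.09 for Mef2d. Among those with it (1 mutant and 2 wild-type) it was −0.69, −0.66 and 0.02.

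Mef2b was close to undetected. It stood at 0 to 3.62 normalised counts in the libraries of the miR29 table and at 0 to 1.65 in those of the Dnmt3a table. These values are at the level of a few reads and allow no comparison.

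Per kilobase of the longest annotated coding transcript, the order of the levels was Mef2c, Mef2d, Mef2a in every library of all 4 groups. In miR29WT the mean levels were 1447 ± 35.4 normalised counts per kb for Mef2c, 720 ± 63.2 for Mef2d and 298 ± 20.4 for Mef2a (SD, n = 3). In Dnmt3a-WT they were 1333 ± 121, 549 ± 12.4 and 351 ± 6.97 (SD, n = 4). With Mef2c lower and Mef2d near its wild-type level, Mef2c and Mef2d came closer in the mutants, at 869 ± 30.3 and 710 ± 1.80 in miR29Nestin and at 994 ± 94.1 and 565 ± 18.7 in Dnmt3a-mi5. Neighbours in the order did not overlap in any group. With the median transcript length in place of the longest, Mef2c and Mef2d in miR29Nestin stood at 1559 ± 54.3 and 1454 ± 3.69 counts per kb, the closest pair.

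The mix of the 3 transcripts can be read within each library, where the scaling between libraries cancels. Mef2c made up 50.3, 48.7 and 47.1% of the summed level per kb in the 3 miR29Nestin libraries and 61.7, 57.2 and 57.3% in the 3 miR29WT libraries. The ratio of Mef2c to Mef2d was 1.22 ± 0.0442 against 2.02 ± 0.237 (SD, n = 3 each). In Dnmt3a-mi5 the share of Mef2c was 49.6, 55.9, 54.4 and 53.2%, against 62.7, 57.5, 58.5 and 59.7% in Dnmt3a-WT, and the ratio of Mef2c to Mef2d was 1.76 ± 0.188 against 2.43 ± 0.251 (SD, n = 4 each). The groups did not overlap in either quantity. The share of Mef2a, 11.5 ± 1.56% against 12.1 ± 0.595% and 16.3 ± 0.858% against 15.7 ± 0.809%, overlapped between mutant and wild type in both models. The summed level was 1784 ± 19.7 against 2465 ± 50.5 counts per kb in the miR29 mice and 1862 ± 91.0 against 2232 ± 118 in the Dnmt3a mice.

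**Figure D2:**
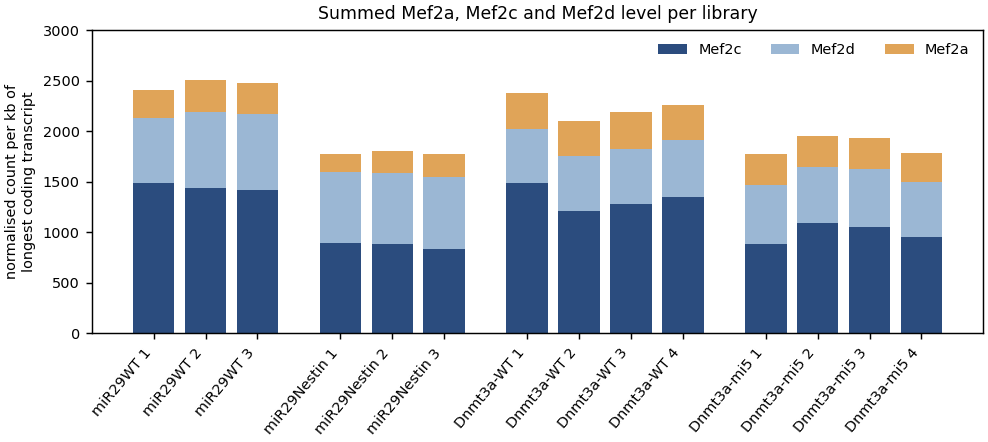
Stacked normalised counts per kb of the longest coding transcript (vertical axis) of Mef2c, Mef2d and Mef2a in each of the 14 libraries. The stacks reach 1772 to 1807 in miR29Nestin against 2409 to 2507 in miR29WT, and the Mef2d and Mef2a segments differ less between groups than the Mef2c segment.

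The 3 loci lie apart in the genome and differ in size. In GENCODE M21 coordinates (GRCm38), Mef2a (ENSMUSG00000030557.17) spans 67231163 to 67372858 on the minus strand of chromosome 7, and Mef2c (ENSMUSG00000005583.16) lies on chromosome 13, plus strand, from 83504034 to 83667080. Mef2d (ENSMUSG00000001419.17) lies on chromosome 3, plus strand, from 88142372 to 88172086. Mef2c and Mef2a are thus 163047 and 141696 bp long, and Mef2d 29715 bp. The nearest 2 tested genes on each side of each member, a choice made after the data were seen, were tested with limma. Of these 12 neighbours 1 rose in miR29Nestin, where 19.1% of all tested genes were called, and 0 were called in Dnmt3a-mi5, where 0.797% were (2 at an unadjusted p under 0.05). The riser was Lysmd4, beside Mef2a, at 584 ± 66.6 against 404 ± 57.6 counts (SD, n = 3 each, limma adjusted p = 0.00997). The neighbours of Mef2c, Cetn3, Mblac2, Tmem161b and Ccnh, had log2 differences of −0.16, 0.00, −0.04 and 0.02 in miR29Nestin (adjusted p of at least 0.061).

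Among all genes tested in both tables, a few followed each member closely over the 14 libraries. Likeness was measured as the root mean square difference of log2 values, each table being centred on its wild-type mean. It is a description, and libraries of a table share their normalisation. Nearest to Mef2c were Camk2n1, an inhibitor of the calcium-calmodulin kinase CaMKII (distance 0.10 log2 units), the calcium channel subunit Cacna2d1 (0.13), the small GTPase Diras2 (0.14), the repressor Zbtb18 (0.14) and the corticotropin-releasing hormone receptor Crhr1 (0.14). The median gene was 0.41 from Mef2c, Mef2d 0.42 and Mef2a 0.21. The log2 differences of these 5 genes lay between −0.87 and −0.63 in miR29Nestin and between −0.32 and −0.17 in Dnmt3a-mi5. All 5 were less negative in Dnmt3a-mi5 than Mef2c itself (−0.40), although in library 3 Zbtb18 lay below it. Only 4 of the 10670 genes tested there were more negative than Mef2c. The 5 were chosen by closeness to Mef2c, so nothing is read from their differences.

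Among the nearest to Mef2a were the postsynaptic scaffold gene Lrrc7 (distance 0.05), the actin regulator Abi2 (0.06), Psd3 (0.06) and Rab11fip2, an adaptor of recycling endosomes (0.06). Their log2 differences lay between −0.49 and −0.39 in miR29Nestin and between −0.15 and −0.13 in Dnmt3a-mi5, and the median gene was 0.26 away. Like Mef2a, these named genes had their lowest miR29Nestin value in library 1. They were chosen by closeness to Mef2a over the same libraries, so nothing is read from this. It was also not particular to them. Of the genes named as nearest to Mef2c, Cacna2d1 and Zbtb18 were lowest in library 1 too, while Camk2n1, Diras2 and Crhr1 were not. Among the nearest to Mef2d were Rpl7 (0.03), a ribosomal protein gene, Zfp335, Tars2 and Cdk8 (0.03 each), with differences between −0.01 and 0.07 in both models. The median gene was 0.10 from Mef2d.

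**Figure D3:**
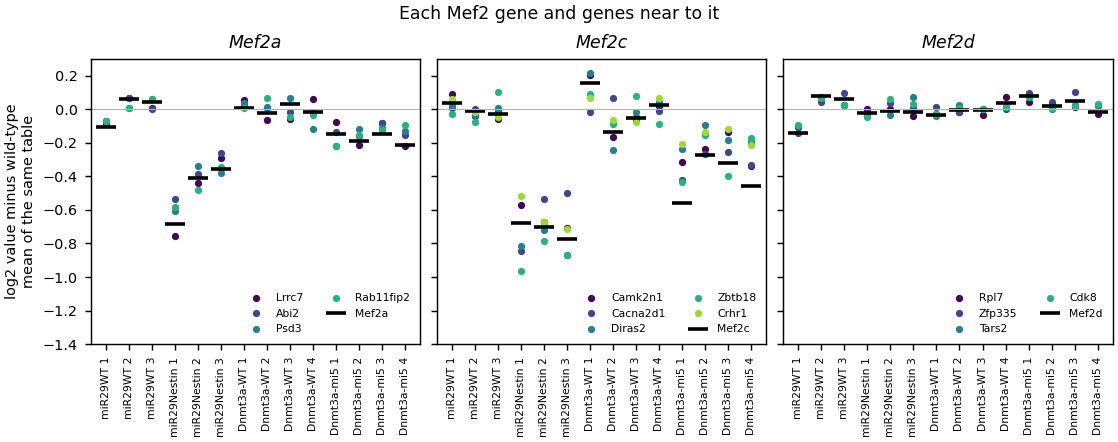
Log2 value minus the wild-type mean of the same table (vertical axis) in each of the 14 libraries for Mef2a, Mef2c and Mef2d (black bars) and the near genes named for each (points). Among the miR29Nestin libraries Mef2a is lowest in library 1 and Mef2c in library 3, and Mef2d stays near 0.

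The cell types that express Mef2 genes were followed by marker lists. In miR29Nestin 4 of 8 excitatory markers fell and 0 rose, where 10% of all tested genes were called lower and 9.02% higher. Among them were Slc17a7, the vesicular glutamate transporter (log2 difference −0.27), and the layer factors Tbr1 (−0.33) and Fezf2 (−0.32), with limma adjusted p of at most 0.0174. The Tbr1 call was lost without miR29WT library 1 (0.0502) and that of Fezf2 without miR29WT library 2 (0.0789). The median difference of the 8 was −0.24, against −0.01 over all tested genes. The summed level of the 8 markers, in which Camk2a had the most counts, was 63107 to 67221 normalised counts in miR29Nestin and 71739 to 82778 in miR29WT. In Dnmt3a-mi5 0 of 8 were called (4 lower and 0 higher at an unadjusted limma p under 0.05), and the sum was 57647 to 63383 against 63788 to 68132. Their part in the Mef2 values was not tested.

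Set against that sum, Mef2c still did not overlap between groups. It stood at 82.3 to 83.4 counts per 1000 excitatory marker counts in miR29Nestin and at 113 to 126 in miR29WT, and at 96.0 to 110 in Dnmt3a-mi5 and 119 to 137 in Dnmt3a-WT. Mef2a did overlap on this scale, at 14.3 to 19.8 against 18.4 to 24.1 and at 26.2 to 29.8 against 28.7 to 29.9. Mef2d stood at 56.9 to 60.9 against 42.2 to 57.4, and at 47.6 to 54.9 against 42.4 to 46.5.

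Microglia and endothelium, which also use Mef2 genes, were measured through their own markers. In miR29Nestin limma called 0 of 7 microglial and 0 of 6 endothelial markers (1 lower in each list at an unadjusted p under 0.05), and the microglial sums of 4228 to 4616 and 4399 to 4786 counts overlapped. In Dnmt3a-mi5 2 of 6 tested microglial markers fell, where 0.572% of all tested genes were called lower and 0.225% higher. They were the receptors Cx3cr1 (487 ± 12.0 against 629 ± 22.2 counts, adjusted p = 0.00919) and P2ry12 (269 ± 47.5 against 391 ± 21.5, adjusted p = 0.0495). The microglial sum was 3266 to 3657 against 3735 to 3921 counts, with no overlap. The endothelial receptor Flt1 was called higher there (379 ± 34.7 against 274 ± 26.8, SD, n = 4 each, adjusted p = 0.0473), and the endothelial sum was 914 to 1076 against 755 to 868 counts. The calls of P2ry12 and Flt1 were lost when the removed effect entered the fit (adjusted p = 0.114 each), and by leaving out Dnmt3a-mi5 library 2 (P2ry12, 0.121) or 1 (Flt1, 0.134). The fit with the removed effect called 0.122% of all genes (0.0281% higher and 0.0937% lower). Their part in the Mef2 values of that table was not tested. In miR29Nestin markers of interneurons (2 rose and 2 fell of 6), astrocytes (2 and 1 of 5), oligodendrocytes (2 and 0 of 5) and mural cells (2 and 1 of 5) were called too, beside 9.02% of all tested genes called higher and 10% lower, and their part was not tested either. Markers of skeletal muscle, where MEF2 factors are also active, summed to 145 to 181 counts in miR29Nestin and 122 to 186 in miR29WT. In Dnmt3a-mi5 they summed to 45.0 to 65.1 against 71.0 to 125 in Dnmt3a-WT, with no overlap. All 5 lay below the filter on low values in that table.

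Genes that act on or with MEF2 proteins, or are described as their targets, changed in the cortex without miR-29 in both directions. Over 6 lists with 53 distinct genes, all of them above the filter, 6 rose and 15 fell in miR29Nestin, which is 39.6% against the 19.1% called among all tested genes (9.02% higher and 10% lower). The lists were chosen with earlier results of these data known. Their median log2 difference was −0.10, against −0.01 over all tested genes. With the replicate number as a block the counts were 9 and 19, with 25.3% of all genes called (11.7% higher and 13.6% lower). Without miR29Nestin library 2, or without miR29WT library 2, they were 4 and 9, and without miR29WT library 3 they were 5 and 9. In Dnmt3a-mi5 limma called 0 of 53, where 0.797% of all genes were called (0.225% higher and 0.572% lower). At an unadjusted p under 0.05 there were 8 higher and 9 lower. Whether the models differ in these genes was not tested.

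**Figure D4:**
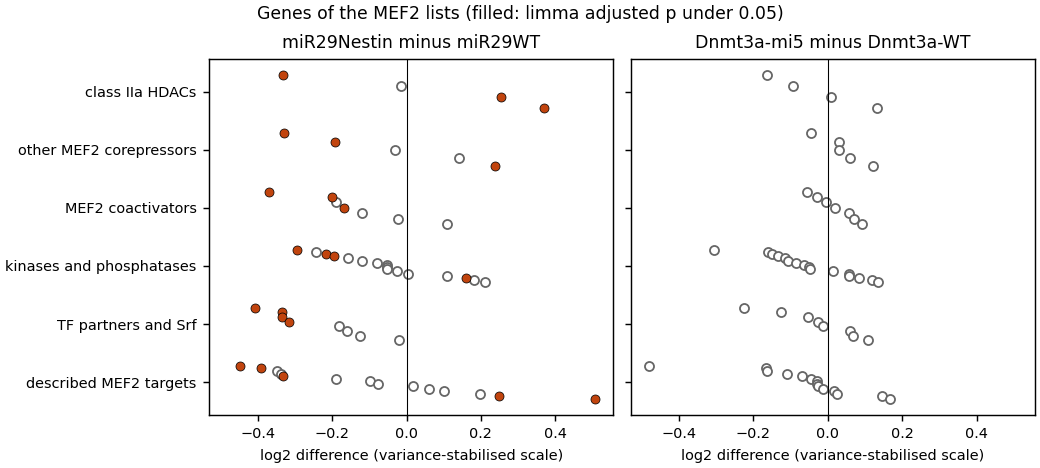
Log2 difference between mutant and wild type (horizontal axes) for each gene of the 6 MEF2 lists in the miR29 comparison (left) and the Dnmt3a comparison (right), filled where limma called the gene. Hdac9 appears in 2 lists, and filled points lie on both sides of 0 on the left and are absent on the right.

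Of the 4 class IIa histone deacetylases, the repressors that bind MEF2 directly, 2 rose and 1 fell in miR29Nestin. Among all tested genes 9.02% were called higher and 10% lower. Hdac7 stood at 811, 753 and 658 normalised counts in miR29Nestin and at 588, 501 and 515 in miR29WT, with no overlap (log2 difference 0.37, SE 0.08, limma adjusted p = 0.00663). Hdac4 stood at 991, 1086 and 1129 against 920, 762 and 925 (0.25, SE 0.07, adjusted p = 0.0339). Its call was lost without miR29Nestin library 2 or 3 or miR29WT library 2, with an adjusted p of up to 0.128. Hdac5 stood at 2077 ± 158 against 2099 ± 120 (SD, n = 3 each) and was not called (adjusted p = 0.895).

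Hdac9, which is itself a described MEF2 target and represses MEF2 in return, was the one that fell. Its miR29Nestin libraries held 382, 416 and 425 counts and its miR29WT libraries 514, 590 and 562 (log2 difference −0.33, SE 0.06, limma adjusted p = 0.00454). In Dnmt3a-mi5 it stood at 387, 427, 450 and 432 counts against 501, 562, 499 and 484 in Dnmt3a-WT. The groups did not overlap there either, but the difference of −0.16 (SE 0.04) missed the threshold (adjusted p = 0.0734). Hdac5 was at 2173 ± 33.1 against 1951 ± 35.8 counts in the same table (SD, n = 4 each), with no overlap and an adjusted p = 0.0554, which became 0.154 with the removed effect as a term.

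**Figure D5:**
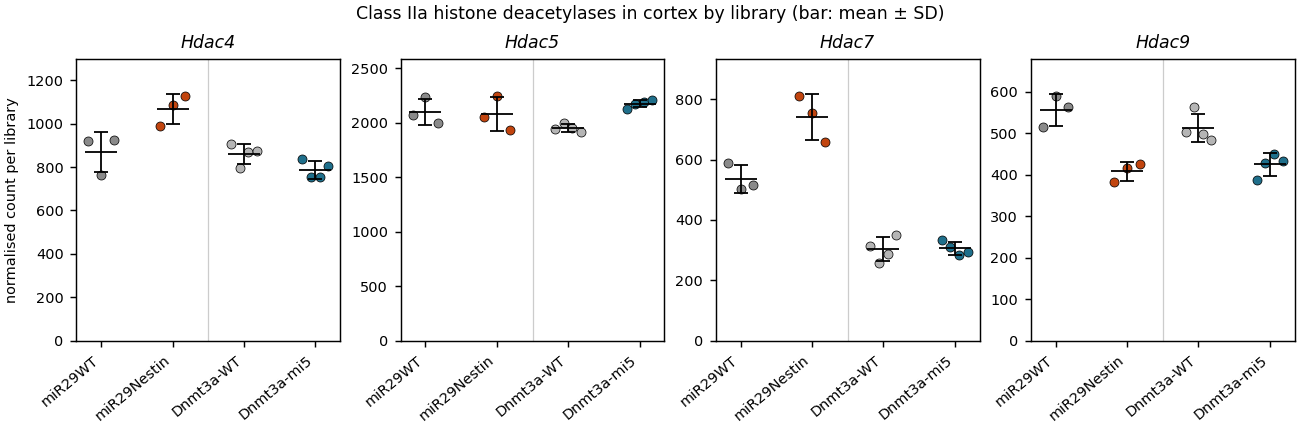
Normalised counts (vertical axes, from 0) of Hdac4, Hdac5, Hdac7 and Hdac9 in each library, with the group mean and SD as bars. In the miR29 model the mutant points lie above the wild-type points for Hdac4 and Hdac7 and below them for Hdac9, and Hdac9 lies lower in Dnmt3a-mi5 too.

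Of 5 other corepressors 1 rose and 2 fell in miR29Nestin, where 9.02% of all tested genes were called higher and 10% lower. The nuclear receptor corepressor Ncor1 fell from 2801 ± 88.7 to 2198 ± 230 counts (SD, n = 3 each, log2 difference −0.33, limma adjusted p = 0.00737). The scaffold Sin3a fell by 0.19 on the log2 scale (adjusted p = 0.0391), a call lost in 6 of 13 alternatives. Of 7 coactivators 3 fell and 0 rose: Ncoa2 (−0.37, adjusted p = 0.0145), the arginine methyltransferase Carm1 (−0.20, 0.019) and the remodelling ATPase Smarca4 (−0.17, 0.0352). The Smarca4 call was lost in 6 of 13 alternatives, among them a term for sex. All 3 calls were lost without miR29Nestin library 2, that of Ncoa2 also without miR29WT library 3, and that of Carm1 without miR29WT library 2 or 3. The acetyltransferases Ep300 and Crebbp, at −0.12 and −0.19, were not called (adjusted p = 0.491 and 0.123).

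Among the 16 kinases and phosphatases that act on MEF2 or on class IIa histone deacetylases, 1 rose and 3 fell in miR29Nestin. That is 25.0%, beside 19.1% called among all tested genes. Ppp3cb, a catalytic subunit of calcineurin, stood at 2365 ± 157 against 2938 ± 32.6 counts (SD, n = 3 each), a log2 difference of −0.29 (limma adjusted p = 0.00398). Another catalytic subunit, Ppp3ca, had a difference of −0.22 (adjusted p = 0.040) and Camk2b one of −0.19 (adjusted p = 0.0138). The Ppp3ca call was lost without miR29Nestin library 1 or miR29WT library 1 or 3, and the Camk2b call without miR29Nestin library 2 or miR29WT library 2 or 3. Cdk5, a kinase that inhibits MEF2, rose by 0.16 with an adjusted p = 0.0498, and kept its call in 4 of 13 alternatives. With the replicate block this list had 3 rises and 5 falls, where 25.3% of all tested genes were called. In Dnmt3a-mi5 Ppp3cb stood at 3272 ± 150 against 3701 ± 123 counts (SD, n = 4 each), without overlap and short of the threshold (−0.16, adjusted p = 0.0734).

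In miR29Nestin all 8 transcription factors listed as partners or relatives of MEF2 had negative differences, from −0.41 to −0.02. The median over all tested genes was −0.01. Of the 8 factors 4 fell, where 10% of all tested genes were called lower. They were Tcf4, an E-protein (2007 ± 145 against 2576 ± 31.9 counts, −0.34, limma adjusted p = 0.0024), the neuronal factor Neurod2 (847 ± 79.2 against 1113 ± 33.7, −0.34, 0.00494), Foxp1 (1156 ± 139 against 1476 ± 26.9, −0.32, 0.0122) and Foxp2 (106 ± 28.05 against 182 ± 22.9, −0.41, 0.0116; SD, n = 3 each). Without miR29WT library 2 the adjusted p of Foxp1 was 0.0541, and without miR29WT library 3 that of Foxp2 was 0.0515. The list's median was −0.25. Srf, the other main MADS-box factor of the cell, had a difference of −0.16 and was not called (adjusted p = 0.15). In Dnmt3a-mi5 Tcf4 stood at −0.22 (adjusted p = 0.117) and Neurod2 at 0.11 (adjusted p = 0.492).

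Genes described as MEF2 targets did not move together. Of 14, 2 rose and 3 fell in miR29Nestin (35.7%, beside 19.1% of all tested genes), with a median log2 difference of −0.09. With the replicate block 3 rose and 5 fell, where 25.3% of all tested genes were called. Among those that fell were Hdac9 and Jun, of the AP-1 complex, which stood at 411 ± 23.5 against 630 ± 157 counts (−0.45, limma adjusted p = 0.0194), a call lost without library 2 of either group. The potassium channel Kcna1 rose to 5740 ± 208 from 3999 ± 430 counts (0.51, adjusted p = 0.000658) and the survival gene Bcl2l2 to 2883 ± 137 from 2398 ± 10.4 (0.25, adjusted p = 0.00596; SD, n = 3 each).

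Several other listed targets are induced by neuronal activity. Arc, which trims synaptic AMPA receptors, had 1380 ± 234.8 counts in the mutants and 1978 ± 1184 in their controls at day 40 (SD, n = 3 per group, limma adjusted p = 0.45). Homer1 had a difference of −0.35 (adjusted p = 0.0764) and Nr4a1 one of −0.19 (adjusted p = 0.298), and with the replicate block their adjusted p was 0.00191 and 0.0339. In Dnmt3a-mi5 Nr4a1 was lower in all 4 mutant libraries, at 966 ± 39.48 and 1515 ± 383.3 counts for mutants and controls (SD, n = 4 per group), with an adjusted p = 0.0802. Bdnf had differences of 0.06 and −0.11 and was called in neither model (adjusted p = 0.69 and 0.272).

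The DNA element that MEF2 proteins bind was also searched in RefSeq promoter windows, 250 bases before to 50 after each transcript start, on both strands. The 10-letter MEF2 element, a degenerate A/T-rich consensus, lay in the windows of 3.70% of 27025 gene symbols. Of the 4 Mef2 genes only Mef2a held it, and of the listed genes reported here Hdac5, Jun and Klf2 did. Matches of listed genes on a single chromosome were left out, so the naming of listed genes may not be complete. These 4 are shown with their flanks because they are Mef2 or listed genes whose windows hold it, with the element in capitals (GRCm38.p6, 5′ to 3′ of the gene's strand).
Mef2a, chr7:67372851-67372860, minus strand: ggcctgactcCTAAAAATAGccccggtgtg
Jun, chr4:95052246-95052255, minus strand: acatcatgggCTATTTTTAGggattgactg
Hdac5, chr11:102230183-102230192, minus strand: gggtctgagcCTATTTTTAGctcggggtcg
Klf2, chr8:72318944-72318953, plus strand: tataccgcggCTAAATTTAGgctgagcccg
In Mef2a the element lies across the annotated transcript start. The 4 genes did not share a direction in miR29Nestin: Mef2a was lower (−0.48, not tested), Jun fell (−0.45, limma adjusted p = 0.0194), Hdac5 stood at −0.02 and Klf2, an endothelial transcription factor, at 0.20 (adjusted p = 0.0513, and 0.0467 with the replicate block). A match is a description and no match says only that these letters are absent from the window.

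Over all genes with the element in a window, the Mef2 members left out, the changes were near the background. Of 189 tested in miR29Nestin, 17 rose and 20 fell, or 19.6%, beside 18.7% of 9141 tested genes whose windows held none, and the median log2 differences were −0.03 and −0.00. In Dnmt3a-mi5, 2 of 162 fell and 0 rose by limma (1.23%; 20 lower and 14 higher at an unadjusted p under 0.05), beside 0.738% of 8133. Those 2 were Lims1 (−0.17, limma adjusted p = 0.0383) and the neuronal membrane glycoprotein gene Gpm6a (−0.28, adjusted p = 0.0478), and both calls were lost with the removed effect as a term (adjusted p = 0.114 each). The 6 called genes with the smallest p in miR29Nestin were Zbtb18 (−0.87), which is also among the genes nearest to Mef2c, Pvalb (0.78), Hrk (0.78), the muscle phosphoglycerate mutase Pgam2 (0.56), Net1 (0.47) and Nfia (0.42), with adjusted p of at most 0.00177.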

How the data were processed

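Cortical polyadenylated RNA of 14 mice was sequenced as stranded paired-end libraries, per the labels' protocols. Cutadapt, STAR, Salmon and DESeq2, with the builds hg19 and mm9, are listed without roles per the submitters' processing notes. Counting by strand is not given in the sources used here. The authors deposited log2 values from the variance-stabilising transformation of DESeq2, 1 table of 24444 genes per model, with 0 unmapped columns. Normalised counts were obtained by inverting that transformation analytically, using each table's zero level (6.5861 and 7.6295). Between 85.3 and 88.6% of low values in the miR29 table lay within 0.05 of whole reads, with size factors of 0.77 to 1.20. In the Dnmt3a values the means of libraries 1 and 2 and of libraries 3 and 4 of both groups were equal for every gene within 5.5e-09, so an effect had been removed and its counts are approximate. The removal lowers the spread within groups, so the SDs, SEs and p-values of the Dnmt3a values may be too small. The main fit had no term for it. Nothing says whether libraries came from separate litters, and the p-values set a difference of groups against the spread between these samples only.

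Each table was fitted alone with limma 3.58.1 (R 4.3.3; mean-variance trend, Benjamini-Hochberg adjustment over all tested genes), tested on simulated data. The filter required a mean log2 value 1 or more above the lowest value of the table, near 48.0 normalised counts for miR29 and 80.1 for Dnmt3a. An adjusted p under 0.05 made a call. The SE of the Mef2 genes is that of a difference of 2 group means, and of other genes limma's. Same-numbered miR29 libraries had correlations of 0.34, 0.20 and 0.19 across genes. A pair of unlike number, miR29Nestin library 3 and miR29WT library 2, had 0.18, and the remaining pairs −0.33 to −0.06. The replicate number was also fitted as a block, as an alternative. This pairing comes from the values, not from the labels. The members and lists were chosen with earlier results of these data known. Named beside the members were the class IIa histone deacetylases, the called genes of smallest p in each list (up to 4, or 6 for targets and promoter genes) and the 5 genes nearest to each member, some of which are not reported here. Python 3.11.15, numpy 2.4.6 and pandas 2.3.3 were used for inversion, sequences and summaries.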

Additional observations from a re-analysis of the deposited data

How the results depend on the processing

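The log2 differences of Mef2a and Mef2c kept their sign under the alternatives that could change them. These were log2 of normalised counts, median centring, the sex term (miR29 table) and each library left out. The replicate blocks and the term for the removed effect are balanced over mutant and wild type. They cannot move a difference of group means, so nothing is read from its staying the same. Leaving out 1 library gave −0.548 to −0.382 for Mef2a, −0.736 to −0.689 for Mef2c and −0.086 to 0.025 for Mef2d in the miR29 table, Mef2d turning positive without miR29WT library 2 (0.025) or 3 (0.016). In the Dnmt3a table the ranges were −0.182 to −0.16, −0.446 to −0.349 and 0.019 to 0.052. Mef2a there moved from −0.17 to −0.207 on the log2 scale of normalised counts, which does not compress. With the replicate block the differences of the 3 genes were −0.483, −0.717 and −0.015.

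Counts of called genes were less stable. With 1 library left out, the miR29 table gave 1399 (without miR29WT library 2) to 2314 calls, against 2289. There were 1435 without miR29WT library 3 and 1474 without miR29Nestin library 2. Calls numbered 1954 with the stricter filter, 2496 with the sex term and 3037 with the replicate block. Within the MEF2 lists, leaving out 1 library gave 13 to 20 calls, against 21. The lists had 19 calls with no filter on low values, 24 with the sex term and 28 with the replicate block. In the Dnmt3a table the count was 85, against 25 with no filter on low values, 13 with the removed effect as a term, and 8 to 175 with 1 library left out. The highest was without Dnmt3a-WT library 2, and leaving out any of the other libraries gave 8 to 21, the lowest without Dnmt3a-WT library 4. Within the MEF2 lists the 0 calls became 1 with the stricter filter and 0 to 2 with 1 library left out. The cause was not tested. In the Dnmt3a table the header repeats replicate numbers 1 and 2 in each library set. Libraries of 1 set with the same number had correlations of −0.15, −0.26, −0.56 and −0.53 across genes. Removal of the effect makes the deviations within a set sum to 0, which pulls these correlations down. They therefore cannot show whether the libraries were paired. With these 4 pairs as a replicate block, an alternative chosen after seeing the data, 2 genes were called, 0 of them in the MEF2 lists, the adjusted p of limma was 0.143 for Cx3cr1, 0.165 for P2ry12 and 0.216 for Flt1, and the differences of Mef2a, Mef2c and Mef2d were −0.173, −0.402 and 0.035.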
